A study of Mus musculus with 4 samples.

Results

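De novo lipogenesis is the making of fatty acids from sugar, and in liver it runs through a short chain of enzymes under transcriptional control. The genes described here are 10 members of that system, chosen by name: the regulators Mlxipl, Srebf1 and Thrsp, and the enzyme genes Acly, Acaca, Acacb, Fasn, Me1, Elovl6 and Scd1. All 10 were among the 12883 genes of the input comparison. In the immunoprecipitate comparison 6 of them were present, as 9 of 7569 transcript features, and Srebf1, Thrsp, Acaca and Me1 were not among the features analysed here.

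The samples were liver RNA from Fto knockout mice and from wild-type mice, both on a C57/Bl6 background and labelled as liver biopsy. From each genotype came RNA pulled down by an antibody that binds methylated adenosine, here called the immunoprecipitate, and input RNA. Each of the 4 labels states 3 replicates. The sources used here do not give age, sex or the way Fto was inactivated. They also do not say that replicates were separate animals, and p-values then reflect only how far these samples spread, which may be technical. Values of single libraries were not analysed here. Everything below starts from the authors' own comparison tables, which give for each feature a mean normalized signal (called the mean here), a log2 fold change with its standard error (SE), a p and an adjusted p.

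Citrate exported from mitochondria is split to acetyl-CoA by the product of Acly, carboxylated to malonyl-CoA by those of Acaca and Acacb, and built into palmitate by fatty acid synthase, the product of Fasn. Malic enzyme (Me1) supplies NADPH, Elovl6 lengthens palmitate, and Scd1 desaturates the products. Mlxipl encodes ChREBP, the factor that answers to carbohydrate, and Srebf1 encodes SREBP-1, which answers to insulin and is released from a membrane-bound precursor. Thrsp (Spot 14) is a small protein induced by thyroid hormone and by feeding. Fto is a demethylase of RNA that acts on N6-methyladenosine inside transcripts and on N6,2'-O-dimethyladenosine (m6Am) at the first transcribed base, and the antibody binds both marks.

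The first transcribed base can carry m6Am only where it is an adenosine, so annotated starts of the members are shown. Each has 20 bases before and 10 bases from the start, with the first transcribed base in capitals. Sequences are RefSeq's on GRCm38.p6, the build also called mm10, written 5′ to 3′ on the strand of the gene, and they cover 9 of the 10 members.
Mlxipl start at chr5:135089870-135089899, plus strand: cgcccagcagtccacaccccAgtctaaaag
Mlxipl start at chr5:135106871-135106900, plus strand: ggctacgttaagcgctctccAgagcgcccg
Srebf1 start at chr11:60222572-60222601, minus strand: aaaaaaaaaaaaaaaaaaaaGtattcggca
Srebf1 start at chr11:60220618-60220647, minus strand: gaaaccccgcccctccgctcAggtggctcc
Srebf1 start at chr11:60210462-60210491, minus strand: tgcgctcacccgaggggcggGgcacggagg
Thrsp start at chr7:97417541-97417570, minus strand: gctgtctgctcaaaagcctaGaaatagcgc
Acly start at chr11:100527991-100528020, minus strand: gccaccacagcagcgaatggGgaggagcct
Acaca start at chr11:84195418-84195447, plus strand: tctcttaatttttcccatagCtctgagagc
Acacb start at chr5:114165498-114165527, plus strand: tcccttgacaggttgcctgaAtggtcttgc
Fasn start at chr11:120824538-120824567, minus strand: gcgcgcgctacgatcgcggcGtggaatcgc
Me1 start at chr9:86695905-86695934, minus strand: ggccgatgccgccgtgactcAgcgcttctc
Me1 start at chr9:86687268-86687297, minus strand: taactgagcaaaccaggggaAgcaagccgg
Elovl6 start at chr3:129532366-129532395, plus strand: tgtagacgagtaaaaagcgtGatggacaaa
An adenosine stood at 6 of these 13 starts: both shown for Mlxipl, both for Me1, the single one shown for Acacb and 1 of 3 for Srebf1. At the starts shown, Fasn, Acly, Elovl6 and Thrsp had a G and Acaca a C. The list is not complete. The annotated genes of Acaca, Acacb, Srebf1 and Fasn begin further upstream than any start shown for them. They begin at bases 84129635, 114146321, 60224186 and 120825166, and the first base there was not looked at. Over all 32851 RefSeq start windows the first base was an adenosine in 34.4%. These are annotated starts; which of them the livers used was not measured, and the tables do not say where in a transcript the antibody bound.

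Fto itself set the direction in which the input was read, so it is no separate check of the labels. It was not among the immunoprecipitate features analysed. In the input, Fto had a mean of 55.8 and stood at −1.49 on the log2 scale (SE 0.27, adjusted p = 3.52e-04) per the authors' deposited table, and the input was read as Fto knockout over wild type on that basis. The header of the immunoprecipitate table states no direction either; it was read the same way, and if that reading were turned, every immunoprecipitate sign below would turn, and differences from the input would change in size as well. Hepatocyte markers were all present in the input, 8 of 8 with the albumin gene Alb highest; in the authors' deposited table their means spanned 531.9 to 84262. Of 6 adipocyte markers, which would mark another lipogenic tissue, only Fabp4 was among the input genes analysed, at a mean of 20.3 and a log2 fold change of 0.49 (SE 0.29) in the authors' deposited table. No marker of hepatocytes, adipocytes, macrophages, endothelial cells, stellate cells or cholangiocytes passed the authors' adjusted p in the input, and 2 had an unadjusted p under 0.05 in the authors' deposited table. These were the hepatocyte genes Tat (0.57, SE 0.26) and Cyp2e1 (0.43, SE 0.21), named after their values were seen, and their part in the results below was not tested. In bulk liver, fewer cells of a type and less RNA per cell cannot be told apart.

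The immunoprecipitate comparison asks which transcripts the antibody recovered at different levels from Fto knockout and wild-type liver. Among the lipogenic features, the one listed for the regulator Mlxipl was lower and was the only member called. No enzyme transcript passed: Scd1 and 1 of 2 Acacb transcripts had large negative fold changes with wide errors, Elovl6 was positive, and Fasn and Acly lay within 1 SE of 0. The background for the Mlxipl call is the share of all features called lower in this table, 3.79% of the 2347 with an adjusted p, or 3.56% of the 1880 that are protein-coding. No member was called higher, beside 0.895% of all features and 0 of the protein-coding ones. By the unadjusted p of the authors' deposited table, 1 of the 8 member transcripts with a p was under 0.05, beside 10.4% of all features. Of the 9 member transcripts only 3 have an adjusted p (Mlxipl, Scd1 and 1 of Acly), so 1 call among 3 is too few to read as a share. Features of different genes can hold the same values, as Klk4 and Klk10 do at a mean of 3.20 and a log2 fold change of 0.14. A feature may then take in signal from beyond the transcript it is named for. Whether that holds for Mlxipl or the other members was not tested.

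The Mlxipl transcript ENSMUST00000005507 stood at a mean of 10.4 and a log2 fold change of −7.60, with an SE of 1.59 and an adjusted p of 0.0266, in the authors' deposited table. The gene lies on the plus strand at chr5:135089890-135139768. Its fold was one of many of that size. Of 2879 features with a mean from 5 to under 20, a band chosen after its value was seen, 380 (13.2%) had a fold change as low or lower, and 48 of the band were called lower. Among the 89 features called lower in the table, 77 had a more negative fold change than Mlxipl. Values of the single libraries behind so large a fold at so low a mean were not analysed here, and no floor can be set for it. By the adjustment the call was near the edge: when the authors' p was adjusted over all 6846 features that have one, Mlxipl stood at 0.0608.

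The upstream sequence of Mlxipl is shown because it is the called member and because ChREBP and SREBP-1 are themselves DNA-binding factors of this pathway. The capitals mark the E-box CACGTG, the sterol response element TCACNCCAC and the CCAAT box CCAAT, each searched on both strands from 250 bases before to 50 bases from the start.
Mlxipl upstream of base 135089890, chr5:135089640-135089889, plus strand: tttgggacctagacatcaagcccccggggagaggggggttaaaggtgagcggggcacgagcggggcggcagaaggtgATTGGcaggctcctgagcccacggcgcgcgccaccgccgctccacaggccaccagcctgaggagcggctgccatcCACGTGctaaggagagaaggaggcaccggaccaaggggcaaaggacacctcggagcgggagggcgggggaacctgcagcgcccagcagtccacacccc
Mlxipl upstream of base 135106891, chr5:135106641-135106890, plus strand: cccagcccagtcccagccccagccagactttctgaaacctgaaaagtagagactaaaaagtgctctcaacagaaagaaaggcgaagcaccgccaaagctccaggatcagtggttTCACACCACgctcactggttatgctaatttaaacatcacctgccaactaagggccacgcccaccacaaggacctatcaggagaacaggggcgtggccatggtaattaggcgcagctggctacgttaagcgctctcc
The upstream start had an E-box 98 bases before it and a CCAAT box, on the other strand, 173 bases before it. The other start, further into the gene, had a sterol response element 136 bases before it. In no other member window was CACGTG or TCACNCCAC found; among all windows they were held by 7.15% and 1.24%. CCAAT was found in 8 of the 13 member windows, from 7 genes, against 37.4% of all windows. Fasn held 3 copies within 90 bases before the start shown for it. Of those Fasn copies, the pair nearest the start lies on opposite strands and shares bases. The marked motifs of Mlxipl do not overlap. A match is a description of the letters and says nothing on binding in these livers.

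**Figure D1:**
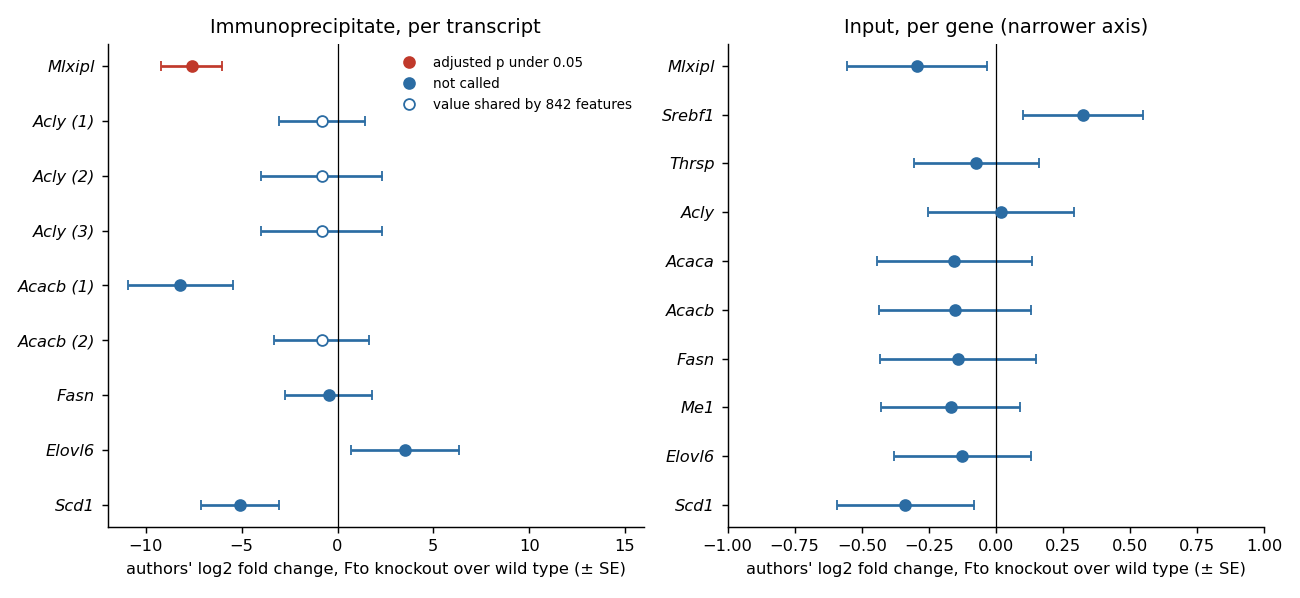
Authors' log2 fold changes (Fto knockout over wild type) with standard errors, for 9 member transcripts in the immunoprecipitate (left) and 10 member genes in the input (right, on a narrower axis); transcripts of 1 gene are numbered by falling mean. Mlxipl at −7.60 is the only called member, open circles sit at a value shared by 842 features, and every input value lies between −0.34 and 0.33.

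The carboxylase gene Acacb makes the malonyl-CoA that restrains entry of fatty acids into mitochondria, and its transcripts were listed separately. ENSMUST00000102582 had a log2 fold change of −8.21 (SE 2.74, mean 6.32) and no p in the authors' deposited table. ENSMUST00000031583, of the same gene, stood at −0.82 (SE 2.48, p = 0.789, mean 4.48) in the authors' deposited table. In all, 723 features of the table have no p, for a reason the sources used here do not give. The difference between the transcripts was not tested, since they may share reads.

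Scd1, at chr19:44394450-44407709, had the highest immunoprecipitate mean of the members, 34.7, and stood at −5.08 on the log2 scale (SE 2.02, unadjusted p = 0.120, 0.368 after adjustment) in the authors' deposited table. A 95% interval built on that SE runs from −9.04 to −1.12 and leaves out 0, while the authors' p does not pass even before adjustment. The deposited p equals the chi-square tail (1 degree of freedom) of the deposited statistic, and that statistic differs from the squared ratio of fold change to SE. The sources used here do not say which term it tests.

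Calls were therefore also made from the fold change over its SE, with Benjamini-Hochberg adjustment over all 7569 features. By this route 8.01% of all features were called lower and 2.81% higher. Mlxipl passed again (adjusted p = 8.67e-05), and the Acacb transcript without an authors' p passed as well (adjusted p = 0.0316). Scd1 did not pass (adjusted p = 0.0831), nor did Elovl6 (0.458), Fasn (0.918), the 3 Acly transcripts or the other Acacb transcript (0.896 each). Fold changes were also centred by the median of features whose mean reached 10. That median was −0.82, the same value that 842 features share. After centring, Mlxipl stood at −6.78 and still passed (adjusted p = 7.81e-04) and Acacb did not (adjusted p = 0.0680). The share of all features called after centring was not counted.

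**Figure D2:**
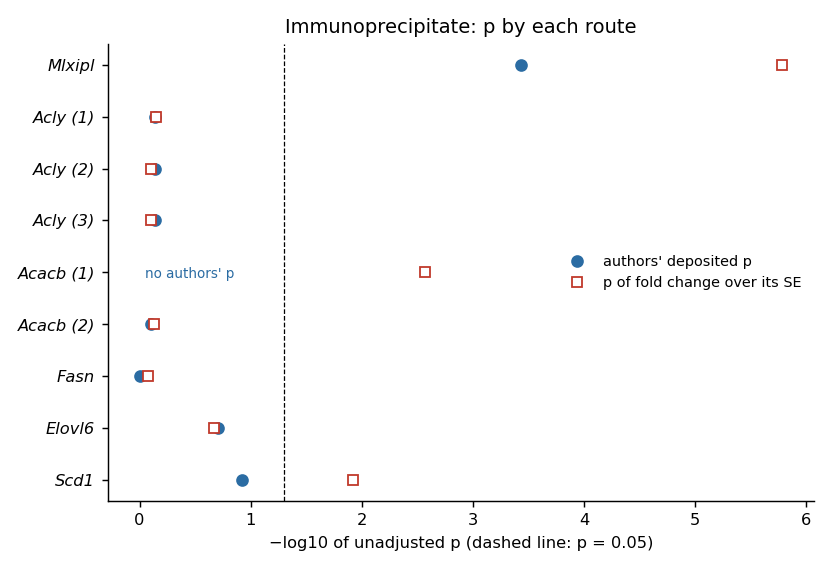
Unadjusted p of each member transcript in the immunoprecipitate on a −log10 scale, as deposited by the authors (filled circles) and from the fold change over its standard error (open squares); the dashed line marks 0.05. Mlxipl lies beyond the line by both routes, Scd1 by the second only (0.0120 against 0.120), and 1 Acacb transcript has no authors' p.

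The remaining enzyme transcripts carry little information on direction. Fasn stood at −0.46 (SE 2.28, p = 0.997, mean 6.12) and Elovl6 at 3.52 (SE 2.84, p = 0.199, mean 3.48) in the authors' deposited table. The 95% interval of Fasn, from −4.94 to 4.02, spans very large changes either way, so its p does not show that binding was alike. Acly had 3 transcripts, 1 at a mean of 9.71 and a pair at 3.88 with the same values throughout, which are not independent. All 3 stood at −0.82 (SE from 2.24 to 3.15) in the authors' deposited table. That value, shared with the second Acacb transcript, was held by 842 features (11.1% of the table) whose means ran from 2.32 to 161.6. A fold change that does not vary over such a span of means is not read here as a measurement for Acly or for that Acacb transcript.

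Across the member transcripts 8 of 9 fold changes were below 0, beside 70.5% of all features. Of those 8, 4 sit at the repeated value. The median was −0.82, which is that value, beside −1.59 for all features. Without features at the repeated value, 4 of the 5 remaining member transcripts were below 0, beside 66.8% of the 6727 remaining features, and their median was −5.08, beside −2.00, an alternative chosen after seeing the data. These medians describe the list and are no test of it.

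**Figure D3:**
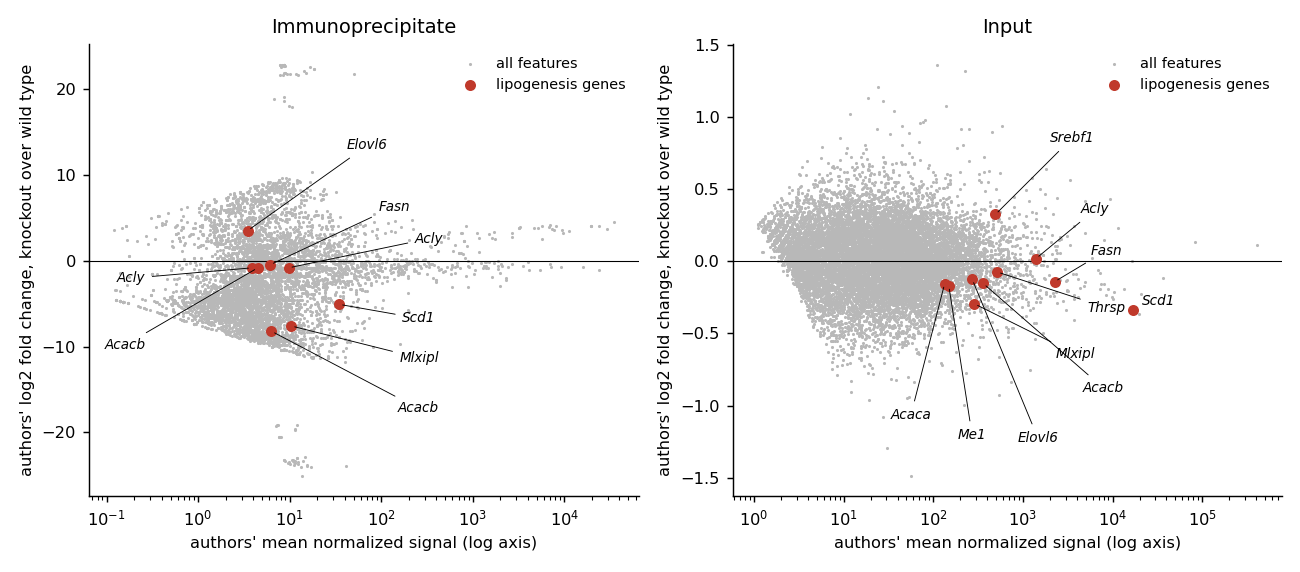
Authors' log2 fold change (Fto knockout over wild type) against the authors' mean on a log axis, for all features (grey) and the lipogenesis genes (red), in the immunoprecipitate (left) and the input (right). Members of the immunoprecipitate sit at means of 3.48 to 34.7, where fold changes are widely spread, while those of the input sit at means from 133.7 to 16874.

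The input comparison asks which RNA levels differed between Fto knockout and wild-type liver. None of the 10 lipogenic genes passed the test. By the authors' adjusted p, 0 members were called, and 0 of the 9 with a p had an unadjusted p under 0.05. Over all genes 0.0233% were called higher and 0.0155% lower, and 2.21% had an unadjusted p under 0.05. Over all input genes, with means down to 1.09, no SE exceeded 0.302 and fold changes lay between −1.49 and 1.36. In the immunoprecipitate SEs reached 4.41 and fold changes ran from −25.0 to 22.9. The sources used here do not state whether the authors shrank the input fold changes towards 0, and this was not tested. Shrunken values and their intervals would understate large changes, so the narrow input range is not read as a lack of change.

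The regulators lay on both sides of 0 in the input. Srebf1 was the highest member at 0.33 (SE 0.22, p = 0.146, mean 493.0), with a 95% interval from −0.11 to 0.76, in the authors' deposited table. Mlxipl stood at −0.29 (SE 0.26, p = 0.261, mean 287.3) and Thrsp at −0.07 (SE 0.23, p = 0.752, mean 515.1) in the authors' deposited table. The 95% intervals of all 3 include 0, and those of Srebf1 and Mlxipl overlap.

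Of the 7 enzyme genes 6 were below 0 in the input, in a narrow range. Scd1 was the lowest at −0.34 (SE 0.25, mean 16874), a value for which the authors' deposited table gives no p. Its fold over SE gave an unadjusted p of 0.184. Me1, the NADPH source, stood at −0.17 (SE 0.26, p = 0.516) and the carboxylase genes Acaca and Acacb both at −0.15 (SE 0.29 and 0.28, p = 0.591 and 0.588) in the authors' deposited table. Fasn was at −0.14 (SE 0.29, p = 0.626, mean 2252) and Elovl6 at −0.12 (SE 0.25, p = 0.624) in the authors' deposited table. Acly, at the head of the chain, stood at 0.02 (SE 0.27, p = 0.943, mean 1400) in the authors' deposited table. The 95% intervals show what these data leave possible on the scale of the table: knockout over wild-type ratios from 0.612 to 1.34 for Fasn, 0.700 to 1.47 for Acly and 0.561 to 1.12 for Scd1.

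As a group the members had a median log2 fold change of −0.15 in the input, with 8 of 10 below 0, beside a median of 0.02 and 46.5% below 0 over all 12883 genes. No spread was computed for that median. Members of a pathway that are regulated together are not independent of each other, and no list test was made.

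The immunoprecipitate and the input were then set against each other for each gene, by the difference of their log2 fold changes. The difference passed for Mlxipl: the log2 fold change in the immunoprecipitate minus that in the input was −7.31 (SE 1.61, adjusted p = 7.45e-05 by the ratio to the SE, with Benjamini-Hochberg adjustment over the 778 genes whose mean reached 10 in each table). For Scd1, the other member at that minimum, the difference was −4.74 (SE 2.04, 95% interval −8.73 to −0.75) with an unadjusted p of 0.0200 and did not pass (adjusted p = 0.0696). The background is high here, since 20.4% of the 778 genes were called lower in the immunoprecipitate than in the input and 5.91% higher. With no minimum mean all 6 genes enter, and Acacb passed beside Mlxipl (difference −8.06, SE 2.75, adjusted p = 0.0386), while Acly (−0.84), Fasn (−0.32) and Elovl6 (3.64) did not. In that family 8.73% of 3928 genes were called lower and 2.14% higher. Were the immunoprecipitate fold changes read the other way round, an alternative chosen after seeing the data, the difference would be 7.89 for Mlxipl (adjusted p = 1.66e-05) and 5.41 for Scd1 (SE 2.04, adjusted p = 0.0313), both passing, beside 21.9% of the 778 genes higher and 5.4% lower. The test treats the errors of the 2 tables as independent, which the design does not show, and it rests on the printed immunoprecipitate SE. Input SEs reached at most 0.302 and immunoprecipitate SEs 4.41, so the fold changes of the 2 tables may not be on a common scale. The difference therefore cannot show that bound RNA changed more than RNA level.

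Other genes of the pathway were followed through a list of 47 in 7 roles, of which 19 were present in the immunoprecipitate as 26 transcripts and 45 in the input. In the immunoprecipitate 1 of the 14 transcripts with an adjusted p was called, and it was lower, beside 3.79% of all features. This was Tkfc, listed under its older name Dak, which encodes the enzyme that phosphorylates glyceraldehyde in fructose breakdown. Tkfc stood at −9.64 (SE 2.03, adjusted p = 0.0345, mean 32.4) in the authors' deposited table, and its call was lost when that p was adjusted over all features with one (0.0857). Txnip, a target gene of ChREBP that restrains glucose uptake, had a pair of transcripts with the same values, −8.54 (SE 2.22, p = 0.00682, mean 6.82) and no adjusted p, in the authors' deposited table. By fold over SE, 3 of 26 transcripts were called, Tkfc and the Txnip pair, all lower, beside 8.01% of all features.

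In the same role, Khk, the kinase that opens fructose breakdown, stood at −4.81 (SE 2.26, p = 0.128) in the authors' deposited table. Elsewhere Elovl3, a fatty acid elongase, stood at −7.49 (SE 2.96, p = 0.0485, adjusted p = 0.222) and Pnpla3, a lipase-like gene of lipid droplets, at −7.34 (SE 2.88, p = 0.0671) in the authors' deposited table. Elovl2, an elongase of polyunsaturated fatty acids, stood at 3.47 (SE 1.46, p = 0.0742, mean 54.0) in 1 transcript in the authors' deposited table. Its other transcript stood at 2.09 (SE 2.18, p = 0.564, mean 23.6) in the authors' deposited table. Insig2, a retention factor for SREBP, stood at 7.11 (SE 2.87, p = 0.126) in the authors' deposited table. The highest pathway value was that of Nr1h3, which encodes the sterol receptor LXR alpha and was named after its value was seen, at 8.03 (SE 3.12) with no p in the authors' deposited table, and by fold over SE it did not pass (adjusted p = 0.0743). The 26 transcripts had a median of −0.43 with 57.7% below 0, beside −1.59 and 70.5% over all features.

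**Figure D4:**
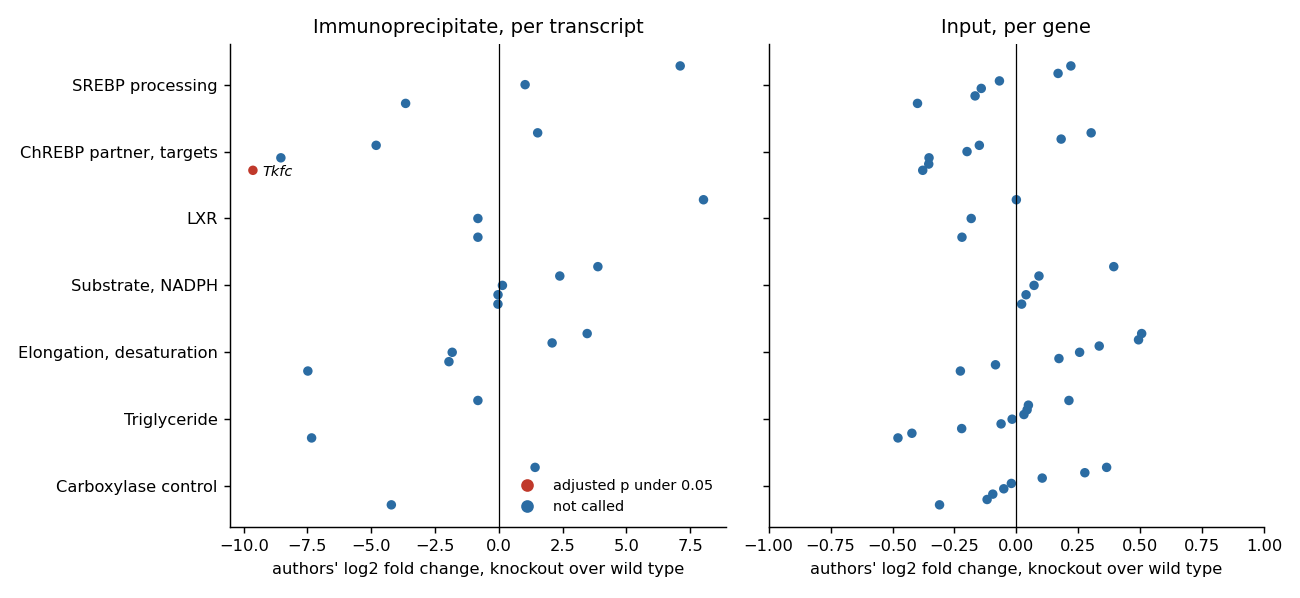
Authors' log2 fold changes (Fto knockout over wild type) of the other pathway genes by role, per transcript in the immunoprecipitate (left, transcripts with the same values drawn once) and per gene in the input (right, on a narrower axis). Tkfc at −9.64 is the only called transcript, and input values spread on both sides of 0 between −0.48 and 0.51.

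In the input 0 of 45 other pathway genes were called by the authors' adjusted p, and 1 of the 42 with a p had an unadjusted p under 0.05, beside 2.21% of all genes. That gene was Elovl2 at 0.49 (SE 0.23, p = 0.0305, mean 1090) in the authors' deposited table. Next by p were Plin2, which coats lipid droplets, at −0.48 (SE 0.25), Scd2, a second desaturase, at 0.51 (SE 0.29), and Scap, the escort of SREBP out of the endoplasmic reticulum, at −0.40 (SE 0.24), in the authors' deposited table. Tkfc stood at −0.38 (SE 0.25, p = 0.132) and Txnip at −0.35 (SE 0.27, p = 0.197) in the authors' deposited table. The difference between immunoprecipitate and input passed for Tkfc (−9.26, SE 2.04, adjusted p = 7.63e-05) and Elovl3 (−7.40, SE 2.97, adjusted p = 0.0483) among the 9 pathway genes that reached that minimum, that is 2 of 9 lower and 0 higher, beside the 20.4% lower and 5.91% higher of all 778 genes. By role, the genes below 0 in the authors' deposited table were 4 of 6 for SREBP processing, 5 of 7 for the partner and targets of ChREBP, 3 of 3 for LXR and its partner, 0 of 5 for substrate and NADPH supply, 2 of 7 for elongation and desaturation, 5 of 9 for triglyceride synthesis and 5 of 8 for control of the carboxylases. None of these genes was called, and values close to 0 count with their sign.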

How the data were processed

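Liver RNA of Fto knockout and wild-type mice was measured by miCLIP, in which an antibody against methylated adenosine is crosslinked to RNA, and as input. The files are the authors' comparison tables, 1 per RNA fraction. Per the submitters' processing notes, which give no roles, STAR, bedtools 2.25.0, DESeq2 and the build mm10 were used. The sources used here do not give counting rules, strand, model or filters. Per the file headers, the authors give a mean normalized signal, a log2 fold change with its SE on the log2 scale, a statistic (a score, deposited by the authors), and a p-value with its adjusted value. In the input table the deposited score equals fold over SE. Depth per library is unknown. Members and lists were chosen with earlier results of these data known.

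Features were called where the authors' adjusted p was under 0.05. In the immunoprecipitate the deposited p is not that of the fold change over its SE, and the term it tests is unknown here, so fold over SE was used beside it. Fold over SE gave normal, two-sided p-values, adjusted by Benjamini-Hochberg over the whole table (Python 3.11.15, scipy 1.17.1). The code was run on simulated fold changes with normal errors of the printed SEs. Such data meet the assumptions of the test, so the run cannot show that these p-values hold for the real tables. Intervals are 1.96 SE either way. For the difference between tables, the transcript with the highest mean stood for a gene. Symbols were brought up to date for 12869 of 12883 input identifiers, and older names in the immunoprecipitate through the input's pairs. Every member was named, and of the other pathway genes up to 10 per table with the lowest p and every called one, with Fto and up to 3 markers per cell type. RefSeq coordinates are on GRCm38.p6. Alternatives were other adjustments, 1 feature per gene, minimum means and centring.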

Additional observations from a re-analysis of the deposited data

Results flagged for a closer look

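Mlxipl was flagged because its fold changes differed between RNA fractions under the same contrast. Its log2 fold change was −7.60 in the immunoprecipitate and −0.29 in the input, a difference of −7.31 (SE 1.61, adjusted p = 7.45e-05 over 778 genes). Most of that difference is the immunoprecipitate fold change itself, so it is no separate support for the immunoprecipitate call. The 2 fold changes may also not be on a common scale. In that family 20.4% of genes passed in the same direction. The immunoprecipitate mean was 10.4 and the input mean 287.3; the part of low read numbers in the result was not tested.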

How the results depend on the processing

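No paired analysis was possible because, as for leaving out a replicate, the tables hold no values of single replicates and the labels number none. Member calls in the immunoprecipitate numbered 1 in the authors' deposited table and stayed at 1 with 1 feature per gene and at a mean of at least 10. They numbered 0 when the authors' p was adjusted over all features with a p (Mlxipl at 0.0608), 2 by fold over SE (Mlxipl and Acacb), and 1 by fold over SE after centring (Mlxipl). For the other pathway transcripts, 1 call became 0 by the first of these, 3 by fold over SE, and 4 (3 lower, and 1 Elovl2 transcript higher) by fold over SE after centring. The other Elovl2 transcript did not pass by that last route (adjusted p = 0.461). Over all features, 77 of the 1571 with an adjusted p at a mean of at least 10 were called lower and 21 higher. By fold over SE 8.01% of all features were called lower and 2.81% higher. No share of all features was counted for the centred route, for 1 feature per gene or for the adjustment over all features with a p. Counts by those routes are therefore not read as a result about these genes. Adjusting over all features with a p takes in 6846 features, beside 2347 that have an authors' adjusted p.

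Calls in the difference between fractions numbered 1 of 2 members at a minimum mean of 10 and 2 of 6 with no minimum. At a minimum of 50 no member remained, so 0 were called. Centring or taking the lowest-p transcript left 1. Among all genes, 134 of 778 were called lower and 55 higher after centring. With the lowest-p transcript, 171 of 712 were called lower and 50 higher. At a minimum of 50, 5 of 126 genes were called lower and 2 higher. The member median in the immunoprecipitate was −0.82, and −6.34 over the 2 transcripts at a mean of at least 10. It was −5.08 without the repeated value and −2.95 with 1 transcript per gene. After centring by −0.82 it was 3.51e-05, since both the centre and the member median are the repeated value. In the input, 0 member and 0 pathway calls held under every alternative run, and the member median stayed at −0.15. With the immunoprecipitate read the other way round, added after seeing the data, 2 of 2 members (Mlxipl and Scd1) passed, both higher. In that reading 170 of all 778 genes passed higher and 42 lower. Member means in the immunoprecipitate ran from 3.48 to 34.7, with depth per library unknown.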
